A study of Mus musculus with 14 samples.

Results

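T cell receptor gene segments were followed in 14 RNA-sequencing libraries from 8 transplanted mouse T-cell acute lymphoblastic leukaemias. The members were the rows of the deposited count table whose biotype marks a T cell receptor gene, 46 of 12421 listed genes. They comprised 7 alpha, 27 beta, 9 gamma and 3 delta segments, and 4 of the 46 were annotated as pseudogenes. No alpha J segment was among them. The label was borne out by the T cell markers Cd3d, Cd3e, Cd3g, Cd247, Cd2, Cd5 and Lck, whose summed level was 2268 to 3882 CPM (counts scaled to library size), with none of the 7 at 0 in any library.

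The labels class the tumours by their relation to the oncogene Lmo2. The independent tumours were VTL-33, VTL-44 and VTL-81, the evolving tumours VTL-21, VTL-25 and also VTL-153, and the dependent tumours were VTL-19 and VTL-24. Each independent and evolving tumour gave 1 library from a mouse fed doxycycline (Dox, 600 mg/kg food) and 1 from a mouse without Dox. Each dependent tumour gave 1 library, without Dox. All 14 libraries came from CD45.1/CD45.2 double-positive donor cells sorted from the spleens of secondary recipients of the strain C57BL/6-Rag1-/-. The labels give neither the ages of the mice nor the strain of the donor thymocytes, and leave the direction in which Dox acts on Lmo2 unstated. Lmo2 stood at 1.27 to 8.40 CPM with Dox and 9.23 to 596 CPM without in the independent class, at 0.196 to 3.31 CPM with Dox and 301 to 737 CPM without in the evolving class, and at 122 to 141 CPM in the dependent class.

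A T cell receptor is built from an alpha and a beta chain or from a gamma and a delta chain, and each chain gene is assembled in the thymus by joining 1 V, in beta and delta also a D, and 1 J segment. The joined exon is spliced to a constant (C) exon. Because joining removes the DNA between the segments, the J segments upstream of the one used are lost from that chromosome, whereas those downstream stay in the intron before C. The beta locus has a pair of D-J-C clusters, so a chromosome whose V is joined to the downstream cluster has lost Trbc1. The delta genes lie inside the alpha locus and are deleted when alpha V joins alpha J. A host without Rag1 makes no joined receptor of its own, so joined receptors in sorted cells come from the graft. Joined segments can therefore label descent within a leukaemia, although counts per gene do not show whether a segment was joined.

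The 3′ ends of the beta V segments that led a library, or stood next to the leader in an evolving or independent tumour, are shown because they are what the libraries differed by. Sequences are 45 bases from the GENCODE M21 transcripts (mm10, plus strand), and capitals mark the TGT codon of the conserved cysteine with which the junction begins and, in Trbv24, an in-frame TAG stop codon ahead of it. Trbv24 is annotated as a pseudogene, and of the 6 segments shown it was the 1 with an in-frame stop in this stretch.
Trbv2 (chr6:41047951-41047995): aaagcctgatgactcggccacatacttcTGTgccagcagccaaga
Trbv5 (chr6:41062759-41062803): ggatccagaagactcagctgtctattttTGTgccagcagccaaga
Trbv13-1 (chr6:41116424-41116468): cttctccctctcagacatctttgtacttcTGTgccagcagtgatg
Trbv13-2 (chr6:41121788-41121832): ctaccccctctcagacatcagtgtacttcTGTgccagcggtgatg
Trbv19 (chr6:41179004-41179048): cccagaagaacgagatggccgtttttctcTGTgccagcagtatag
Trbv24 (chr6:41218513-41218557): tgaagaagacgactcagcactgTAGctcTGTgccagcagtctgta

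The beta J segments with the largest share in a library are shown from the same source, whole but for Trbj1-3. Of the 54 bases of Trbj1-3 used for its share, the first 50 are shown. Capitals mark the motif TTNGGNNNNGG, the bases that encode the phenylalanine, glycine, any residue, glycine turn at the end of the junction, searched on the transcribed strand. It is in 59 of the 80 J transcripts of the annotation (73.75%) and in 11 of the 14 beta J transcripts (78.57%), and it was not found in Trbj1-7.
Trbj1-3 (chr6:41534323-41534372): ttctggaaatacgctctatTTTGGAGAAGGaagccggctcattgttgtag
Trbj1-7 (chr6:41535642-41535687): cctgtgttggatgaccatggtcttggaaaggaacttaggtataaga
Trbj2-1 (chr6:41542754-41542803): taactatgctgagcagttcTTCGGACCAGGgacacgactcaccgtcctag
Trbj2-2 (chr6:41542957-41543007): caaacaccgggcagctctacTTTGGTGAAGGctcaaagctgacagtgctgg
Trbj2-3 (chr6:41543223-41543271): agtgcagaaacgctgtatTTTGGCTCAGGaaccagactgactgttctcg
Trbj2-7 (chr6:41543810-41543856): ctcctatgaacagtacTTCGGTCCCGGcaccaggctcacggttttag

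Column totals were 18214415 to 24048281 counts, and the 46 members held 0.112% of them in VTL-21 without Dox to 0.357% in VTL-81 with Dox. A count of 0 allows up to 3 counts, or 0.125 to 0.165 CPM depending on the library, for counting error only. Every listed gene reached 1 CPM in at least 2 libraries, so a segment used by a single library may not be listed, and such segments were not analysed here. In bulk RNA, fewer cells using a segment and less RNA of it per cell cannot be told apart. Myeloid markers (8 of 8 listed) summed to 18.01 to 1974 CPM with Dox and 16.1 to 1403 CPM without, and their part in the results was not tested.

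By its leading beta V and first beta J segments, 1 library stood apart from its label. In levels the VTL-21 pair differed too, with 3 of 18 members within 2-fold, as given below. The library labelled VTL-25 without Dox shared few segments with VTL-25 with Dox and most of them with VTL-153 without Dox. Of its 16 members with at least 100 counts, 14 were within 2-fold of VTL-153 without Dox, 7 within 2-fold of VTL-153 with Dox and 6 within 2-fold of VTL-25 with Dox. Trbv24 had 0 counts in VTL-25 with Dox, against 5951 in this library, and 7327 in VTL-153 without Dox. The 8 segments that were high in VTL-25 with Dox (at least 100 counts) and at most 25 counts in both VTL-153 libraries were still found in it. Trbv5 reached 1 CPM in no other library than these 2, so its presence in the list already required this; the other 7 are listed through further libraries. The 8 segments stood at 0.988% to 3.05% of their level in VTL-25 with Dox, with a median of 1.42%. Trbv5 was among these, with 5440 counts in VTL-25 with Dox, against 93 counts in the library labelled VTL-25 without Dox, and with 15 and 3 counts in VTL-153 with and without Dox. Across all 12421 genes, by contrast, the deviation of VTL-25 with Dox from its group mean correlated best with the library labelled as its partner, although only at 0.0367. Which leukaemia its cells came from was not tested. Overlaps, constant sums and edgeR counts that use the library are given below with and without VTL-25; DESeq2 counts and the permutations within a class were not recomputed without it.

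**Figure D1:**
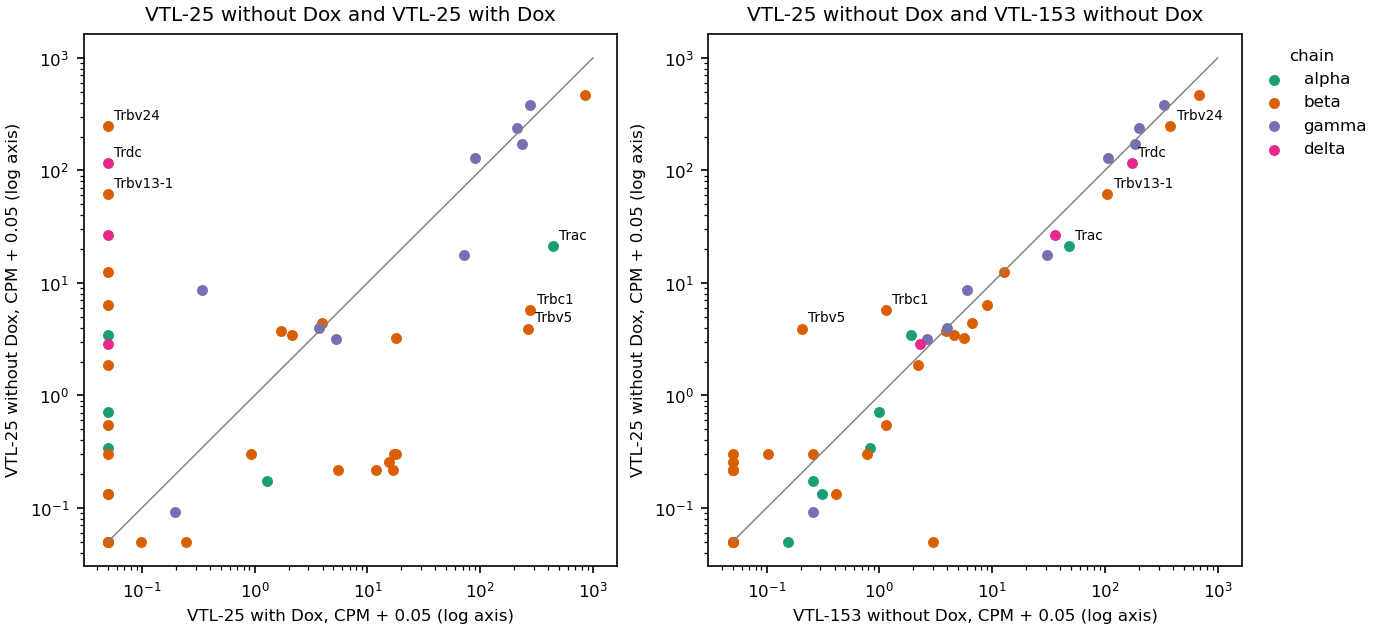
Each point is 1 of the 46 receptor segments, coloured by chain, with its level in the library labelled VTL-25 without Dox on the y axis and in VTL-25 with Dox (left) or VTL-153 without Dox (right) on the x axis, both in CPM + 0.05 on log axes with the line of equality. Trbv24, Trbv13-1 and Trdc are at 0 in VTL-25 with Dox and near the line against VTL-153 without Dox. Trbv5 and Trbc1 lie above the line in the right panel, and Trac lies below it (21.2 against 48.1 CPM).

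Beta V use was narrow in every library. Shares are of counts divided by exon length, over the 12 listed beta V segments. A single segment held at least 70.8% of the beta V signal in each of the 14 libraries. The widest Wilson 95% interval of a leading segment's share of plain counts was 90.8% to 96.2%, in VTL-19, and the widest in the other 13 libraries was 77.8% to 79.65%. Such intervals cover counting error only, since PCR copies are not independent molecules.

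Among the independent tumours, VTL-81 had Trbv2 at 99.9% with Dox and 99.98% without, from 21153 and 28504 counts. VTL-44 had Trbv19 at 93.8% with Dox and 88.2% without, and Trbv13-2 came next at 3.57% with Dox and 7.71% without. VTL-33 had the pseudogene Trbv24 at 70.8% with Dox and 72.4% without, followed by Trbv13-2 at 14.2% with Dox and 10.9% without. Each of these 3 tumours thus kept its leading listed segment, and no listed beta V segment at 5% or more in 1 of its libraries was under 1% in the other.

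Among the evolving tumours, VTL-153 had Trbv24 at 74.4% with Dox and 78.5% without, followed by Trbv13-1 at 24.3% with Dox and 20.6% without. VTL-21 had Trbv24 at 96.1% with Dox and 85.3% without. Its next segment differed, because Trbv13-1 held 0.0319% with Dox (3 counts) against 13.3% without (882 counts), while Trbv13-2 held 1.74% with Dox. VTL-25 with Dox had Trbv5 at 99.7% and neither Trbv24 nor Trbv13-1, whereas the library labelled VTL-25 without Dox had Trbv24 at 79.6% and Trbv13-1 at 18.9%. Of the listed segments, the leading and second were thus kept in VTL-153, the leading segment was kept in VTL-21, and neither was kept under the label VTL-25.

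Both dependent tumours were led by Trbv2. In VTL-24 it held 99.98% from 12166 counts. In VTL-19 it held 90.8% from only 286 counts, where the beta constant segments had 20864. VTL-19 thus had 1.46 listed beta V counts per 100 constant counts, against 23.8 to 124 in the other 13 libraries. V segments that are not listed were not analysed here.

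**Figure D2:**
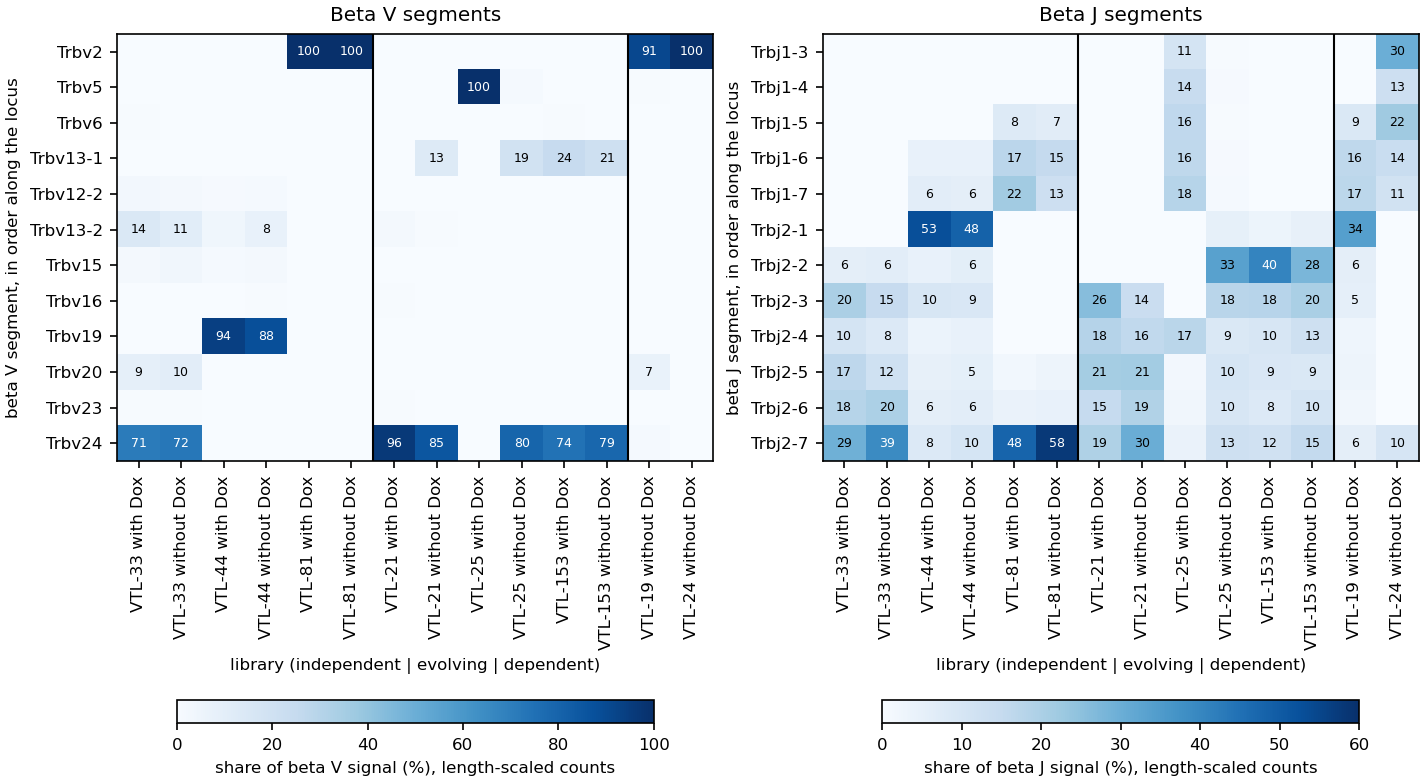
Share of beta V signal (left, 12 segments) and beta J signal (right, 12 segments) in each of the 14 libraries, from length-scaled counts, with segments in order along the locus and shares of 5% or more printed. Vertical lines divide independent, evolving and dependent tumours; both columns of a tumour have the same leading V in every pair but VTL-25, whose library without Dox looks like VTL-153, and in VTL-21 Trbv13-1 is printed without Dox only.

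Expression of Trbv24 divided the libraries. It stood at 240 to 430 CPM in VTL-33, VTL-21, VTL-153 and the library labelled VTL-25 without Dox, and at 0 to 0.384 CPM in the other 7 libraries. A V segment carrying a stop codon cannot encode a chain in the reference form, and Trbv13-1 or Trbv13-2, neither annotated as a pseudogene, accompanied it at 10.9% or more in each of the libraries with Trbv24 but VTL-21 with Dox. Counts per gene do not show which V was joined to which J, nor whether a junction was in frame.

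The beta J segments were read by where their counts began. The table lists Trbj1-3 to Trbj1-7 and Trbj2-1 to Trbj2-7; Trbj1-1 and Trbj1-2 were not analysed here, so the first segment named is the first of those listed. In each cluster, counts began at 1 J segment and continued to the end of the cluster. The first J with at least 10 counts was the same in both libraries of 5 of the 6 pairs, and in 12 of the 14 libraries at most 1 count lay upstream of it in a cluster or in a cluster with no such segment. In VTL-44 the counts began at Trbj1-6 in the first cluster, with 83 counts with Dox and 99 without, and at Trbj2-1 in the second, with 889 counts with Dox and 969 without. In VTL-81 they began at Trbj1-5 (60 counts with Dox and 54 without) and at Trbj2-5 (14 with Dox and 24 without). These tumours had counts in both clusters.

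VTL-33, VTL-21 and VTL-153 had no segment of the first cluster at 10 counts. VTL-33 began at Trbj2-2, with 26 counts with Dox and 29 without, and its largest J was Trbj2-7 at 29.4% with Dox and 39.1% without. VTL-21 began at Trbj2-3, with 509 counts with Dox and 88 without, and the 2 upstream segments of that cluster had 0 counts in both libraries. VTL-153 began at Trbj2-1, with 35 counts with Dox and 41 without, and Trbj2-2 led with 40.5% with Dox and 27.8% without. The starting segment thus told VTL-21 from VTL-33 and VTL-153, although Trbv24 led in all 3.

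VTL-25 with Dox began at Trbj1-3, with 243 counts, and at Trbj2-4, with 364 counts, and Trbj2-1, Trbj2-2 and Trbj2-3 had 0 counts. The library labelled VTL-25 without Dox had 4 to 6 counts in each of Trbj1-3 to Trbj1-7 and began at Trbj2-1 with 44 counts. Its largest J was Trbj2-2, at 33.3%, the same as in VTL-153. Of the dependent tumours, VTL-19 began at Trbj1-5 (208 counts) and Trbj2-1 (798 counts), and VTL-24 at Trbj1-3 (305 counts) and Trbj2-7 (88 counts).

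**Figure D3:**
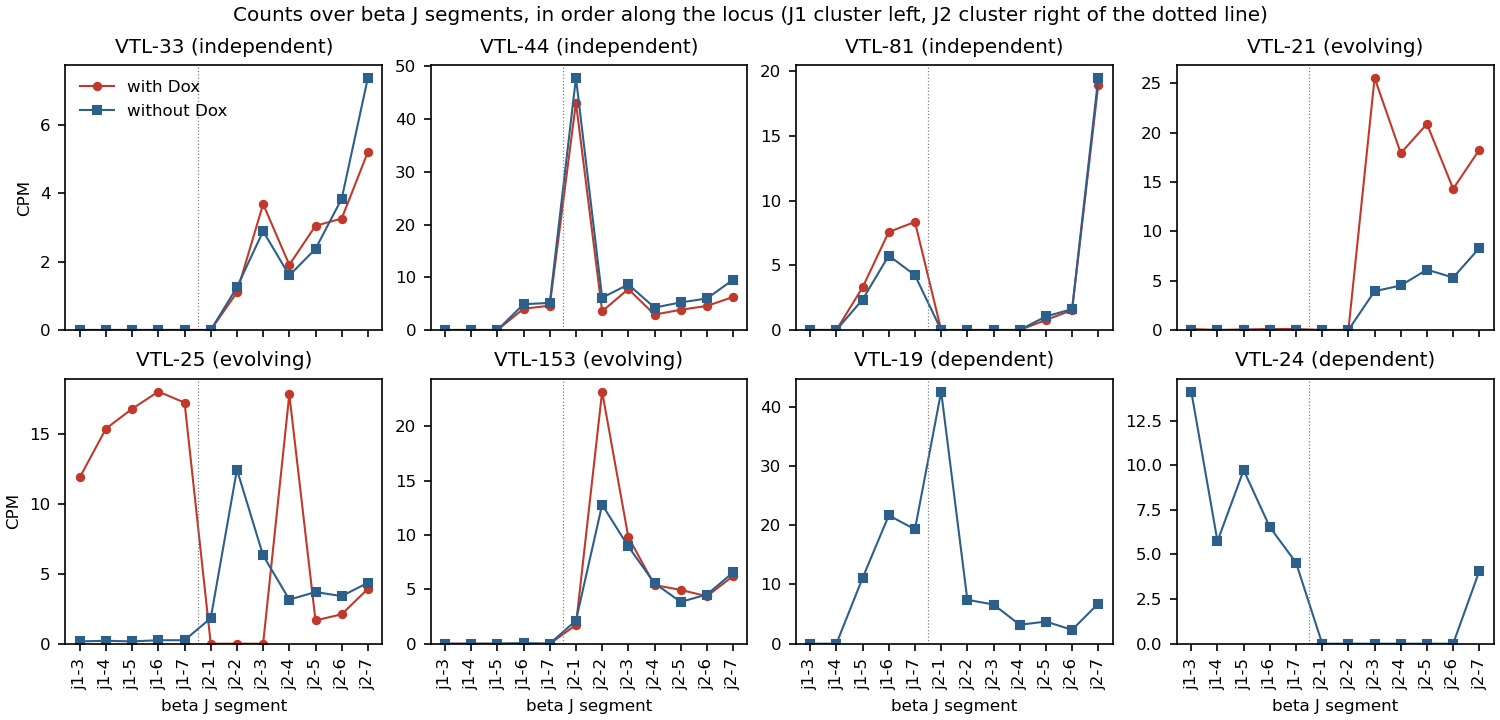
CPM of the 12 listed beta J segments in order along the locus, 1 panel per tumour, with Dox as red circles and without Dox as blue squares; the dotted line parts the J1 and J2 clusters, and each panel has its own y axis. Counts start at the same segment in both libraries of VTL-33, VTL-44, VTL-81, VTL-21 and VTL-153, and at different segments under the label VTL-25.

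The constant segments followed the J clusters. Trbc1, the constant segment of the first cluster, stood at 0.535 to 5.66 CPM in the 7 libraries with no Trbj1 segment at 10 counts, and at 278 to 834 CPM in the 7 libraries with one. Trbc2 was present in all 14, at 141 to 1145 CPM. Trbd2, the D segment of the second cluster, had 98 counts with Dox and 165 without in VTL-81, 15 with Dox and 18 without in VTL-44, 111 in VTL-25 with Dox, and at most 36 elsewhere. The copies Trbc1 and Trbc2 are nearly identical in sequence, and how reads matching both were counted is not given in the sources used here. That 6 of the libraries had under 4 CPM of Trbc1 beside 438 to 1033 CPM of Trbc2 bounds such crossover of reads there.

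Whether use was shared more within tumours than between them was tested by the overlap of 2 libraries, the sum over segments of the smaller share. Partner overlap of beta V use was 95.6% in VTL-33, 94.4% in VTL-44, 99.9% in VTL-81, 86.6% in VTL-21, 1.22% in VTL-25 and 95.5% in VTL-153. The mean was 78.9% for the 6 labelled pairs and 24.3% for pairings of different tumours (exact one-sided permutation test over 720 pairings, p = 0.00139, adjusted p = 0.00417 over 3 kinds of segment). That p is the smallest these pairings can give. For beta J the mean was 76.9% in labelled pairs and 42.6% in other pairings (exact permutation p = 0.00278, adjusted p = 0.00417). Without VTL-25 the means were 94.4% for beta V and 88.5% for beta J (exact permutation, both adjusted p = 0.0125). Every listed gene reached 1 CPM in at least 2 libraries. A segment used in 1 library of a tumour and lost from its partner may therefore be absent. Such a filter favours high partner overlap for all 3 kinds of segment, by an amount that was not tested.

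The overlap between different tumours was not low throughout. Its median was 0.344% for beta V and 36.4% for beta J. The library labelled VTL-25 without Dox shared 97.75% of its beta V use and 89.96% of its beta J use with VTL-153 without Dox, against 1.22% and 19.3% with its labelled partner. VTL-21 without Dox shared 86.6% of its beta V use with its partner. It shared 93.3% with the library labelled VTL-25 without Dox and 92.4% with VTL-153 without Dox. Of its beta J use it shared 84.9% with its partner and 88.03% with VTL-33 with Dox. VTL-81 without Dox shared 99.99% of its beta V use with VTL-24, since both were almost wholly Trbv2. Their J profiles nevertheless began at different segments. When pairings were permuted only within a class, which leaves 36 pairings, none of the 3 tests passed (exact permutation, adjusted p = 0.0556 each).

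**Figure D4:**
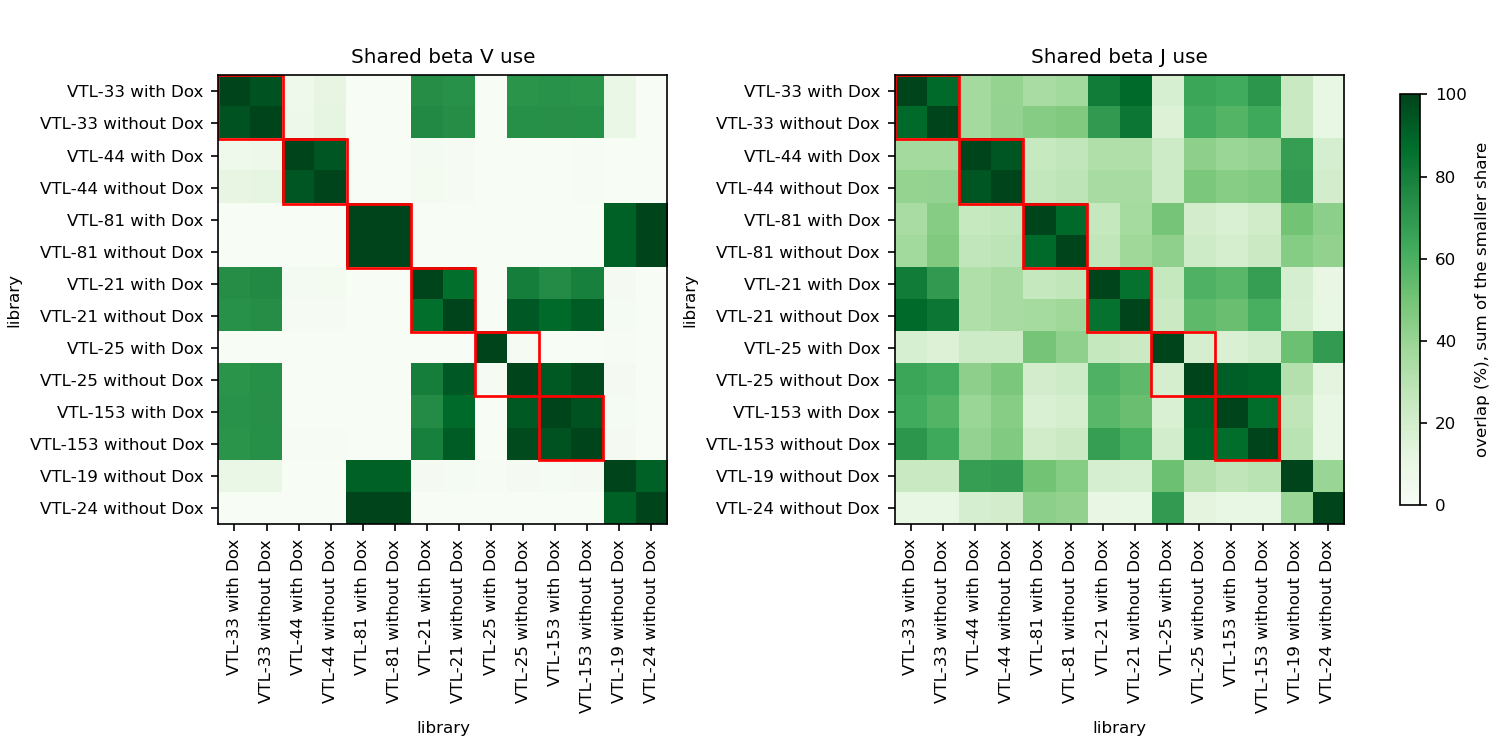
Overlap of beta V use (left) and beta J use (right) between all 14 libraries, in percent, with each tumour's pair outlined in red (with Dox first). Dark cells fill the outlined pairs of 5 tumours, whereas in the VTL-25 pair the overlap is 1.22% (V) and 19.3% (J); dark cells outside the outlines show different tumours with the same leading V.

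Alpha chain use was described less fully, because 6 alpha V segments and no alpha J were listed. In VTL-81 the listed alpha V segment Trav19 had 2928 counts (161 CPM) with Dox and 3294 counts (143.5 CPM) without, 81.2% and 79.8% of the alpha V signal. Trav19 had at most 60 counts in any other library. VTL-19 was led by Trav21-dv12, whose symbol also names a delta V segment, with 335 counts. Listed alpha V counts there were 249 per 100 counts of the alpha constant segment Trac. The figure was 169.9 in VTL-21 without Dox and at most 54.2 in the other libraries. Whether such V counts came from joined alpha chains was not tested. Trav17 had 0 counts with Dox and 166 without in VTL-33, where it led the library without Dox. The same segment had 123 counts in VTL-21 with Dox and 186 without, and led both, at 32.2% with Dox and 63.4% without. Trav19 held 5.6% in VTL-21 with Dox (28 counts) and 0.782% without (3 counts). Trav17 had 0 counts in VTL-25 with Dox and 82 in the library labelled VTL-25 without Dox. Trav18 and Trav21-dv12 likewise had 0 counts in VTL-25 with Dox, against 16 and 7 in that library (15.2% and 6.06%).

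In the other libraries the listed alpha V counts were few. They totalled 3 with Dox and 6 without in VTL-44, 10 in VTL-33 with Dox, and 25 in VTL-25 with Dox, all of these 25 being Trav13-2. In VTL-44, Trav20 had 0 counts with Dox and 1 without, where that count made 18.35% of the alpha V signal. VTL-24 had 70 counts of Trav13-2 out of 71. In VTL-153 the leader was Trav19 with 60 counts with Dox and Trav17 with 36 counts without. Partner overlap of alpha V use was 27.3% in VTL-33, 81.65% in VTL-44 and 95.5% in VTL-81. It was 68.5% in VTL-21, 2.4% in VTL-25 and 66.4% in VTL-153. VTL-33, VTL-44 and VTL-25 with Dox overlapped one another at 100%, through Trav13-2 alone (10, 3 and 25 counts). The mean partner overlap of alpha V use was 57.0%, against 23.96% in other pairings (exact permutation p = 0.00833, adjusted p = 0.00833). Without VTL-25 the mean was 67.9% (exact permutation, adjusted p = 0.0167). The adjusted exact permutation p was 0.05 when VTL-81, VTL-21 or VTL-153 was left out, with means of 49.25%, 54.7% and 55.1%, so that the test then did not pass.

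Trac, the alpha constant segment (chr14:54220521-54224206), stood at 197, 82.0 and 362 CPM with Dox in VTL-33, VTL-44 and VTL-81, against 138, 70.1 and 317 CPM without Dox. In VTL-21, VTL-25 and VTL-153 it stood at 87.4, 438.5 and 86.3 CPM with Dox, against 7.72, 21.2 and 48.1 CPM without. VTL-19 had 10.7 CPM and VTL-24 had 261.5 CPM. It was higher with Dox in 6 of 6 tumours, and the values of the evolving class did not overlap between conditions. The mean log2 change over the 6 tumours was 1.57 (SE 0.73), with an exact two-sided sign-flip permutation p of 0.0313, the smallest that 6 tumours allow, and an adjusted p of 0.125 over the 4 chains, which did not pass. Without VTL-25 the mean was 1.02 (SE 0.59, 5 of 5 tumours higher, exact permutation p = 0.0625, the smallest possible).

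Trdc, the delta constant segment (chr14:54142851-54148868), lies between the alpha V and alpha J segments. It stood at 18.9 CPM with Dox and 32.2 CPM without in VTL-21, and at 0.687 CPM (14 counts) with Dox and 173 CPM (3326 counts) without in VTL-153. In VTL-25 it had 0 counts with Dox, against 116.5 CPM (2802 counts) in the library labelled as its partner. VTL-19 had 74.5 CPM. Trdc had 3 counts in VTL-33 with Dox and 0 counts in VTL-33 without Dox, both VTL-44 libraries, both VTL-81 libraries and VTL-24. The independent tumours thus had almost no delta transcript, with or without Dox.

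Delta V and J counts accompanied Trdc in VTL-153 and the library labelled VTL-25 without Dox, but not everywhere. Trdv4 had 5 counts with Dox and 688 without in VTL-153, and 0 with Dox against 636 in the library labelled VTL-25 without Dox, and at most 5 elsewhere. Trdj2 had 0 counts with Dox and 43 without in VTL-153, and 67 in the library labelled VTL-25 without Dox. VTL-19 had 1397 Trdc counts with 7 of Trdj2 and 0 of Trdv4, and VTL-21 had 5 counts of Trdv4 with Dox and 1 without beside 376 and 721 of Trdc. The 8 libraries with at most 3 Trdc counts had 70.1 to 438.5 CPM of Trac, and the 6 with more had 7.72 to 87.4 CPM. The mean log2 change of Trdc with Dox was −2.36 (SE 1.41), with an exact permutation p of 0.25 and an adjusted p of 0.25. Without VTL-25 that change was −1.45 (SE 1.32, exact permutation p = 0.5). In VTL-153 the beta V and J segments overlapped by 95.5% and 87.02% between the same libraries in which Trdc differed.

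Markers of gamma delta T cells (6 of 7 listed) summed to 141 to 421 CPM with Dox and 175 to 208 CPM without in the independent class, to 297 to 477 CPM with Dox and 140 to 265.5 CPM without in the evolving class, and to 158 to 291 CPM in the dependent class. One of them, the transcription factor gene Sox13, chosen after its values were seen, ran the other way. It stood at 3.81, 25.9 and 7.51 CPM with Dox in VTL-21, VTL-25 and VTL-153, against 94.7, 159 and 81.8 CPM without (log2 change −3.49, SE 0.51, n = 3, edgeR adjusted p = 0.0268). Over the alternatives its adjusted p ran up to 0.257, and without VTL-25 it was 0.0655. The part of such cells in the delta and gamma values was not tested.

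Gamma constant segments varied widely between tumours. Their sum (Tcrg-C1, Tcrg-C2, Tcrg-C3 and Tcrg-C4) stood at 801.5, 11.6 and 613 CPM with Dox in VTL-33, VTL-44 and VTL-81, against 1044, 34.1 and 192 CPM without. In VTL-21, VTL-25 and VTL-153 it was 14.1, 720 and 220 CPM with Dox, against 254, 793 and 722 CPM without. It was lower with Dox in 5 of 6 tumours and higher in VTL-81, and the mean log2 change of −1.02 (SE 0.78) did not pass (exact permutation p = 0.219, adjusted p = 0.25), and it was −1.20 (SE 0.94) without VTL-25. It moved to −0.41 (SE 0.60) without VTL-21 and to −1.56 (SE 0.70) without VTL-81, where the exact permutation p was 0.0625, the smallest that 5 tumours allow. In VTL-21 with Dox, Tcrg-C4 made up 264 of the 281 gamma constant counts, whereas Tcrg-C1 and Tcrg-C2 had 6 and 11 counts, against 1738 and 1042 in VTL-21 without Dox.

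Tcrg-C3 was found at 207 counts with Dox and 8 without in VTL-81, at 0 with Dox and 219 without in VTL-21, at 373 in VTL-24 and at most at 4 elsewhere. In VTL-81 and VTL-21 both listed gamma V segments differed in the same direction as the constant segments. Trgv2 had 135 CPM with Dox and 47.2 CPM without in VTL-81, and 0.201 CPM with Dox and 31.05 CPM without in VTL-21. Tcrg-V1 had 46.2 CPM with Dox and 12.4 CPM without in VTL-81, and 0.1003 CPM with Dox and 26.0 CPM without in VTL-21. Under the label VTL-25 it differed in the opposite direction, with 71.25 CPM with Dox and 17.8 CPM without, and it had 21.9 CPM with Dox and 30.9 CPM without in VTL-153. Of the J segments, Trgj1 led VTL-33 at 51.7% with Dox and 49.8% without. Trgj4 led VTL-24 at 57.96%, and Trgj2 led VTL-81 without Dox at 64.3%, where Trgj4 led with Dox at 52.7%. Trgj1 had 0 counts with Dox and 45 without in VTL-21. Trgj4 had 0 counts with Dox and 1 without in VTL-44, where that count made 12.3% of the gamma J signal. Tcrg-V4, a further gamma V segment that the table files under another biotype and that was therefore no member, had 0 counts with Dox and 977 without in VTL-21, and 628 with Dox and 2279 without in VTL-153.

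Beta constant transcripts (Trbc1 and Trbc2 together) were abundant throughout. They stood at 505, 1979 and 1006 CPM with Dox in VTL-33, VTL-44 and VTL-81, against 547, 1698 and 1002 CPM without. In VTL-21, VTL-25 and VTL-153 they stood at 1036, 1126 and 779.5 CPM with Dox, against 439, 469 and 678 CPM without. The evolving class did not overlap between conditions and the independent class did. The mean log2 change over 6 tumours was 0.47 (SE 0.25, 5 of 6 tumours higher with Dox, exact permutation p = 0.0938, adjusted p = 0.1875), and 0.31 (SE 0.24) without VTL-25. Neither this nor any other chain passed.

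**Figure D5:**
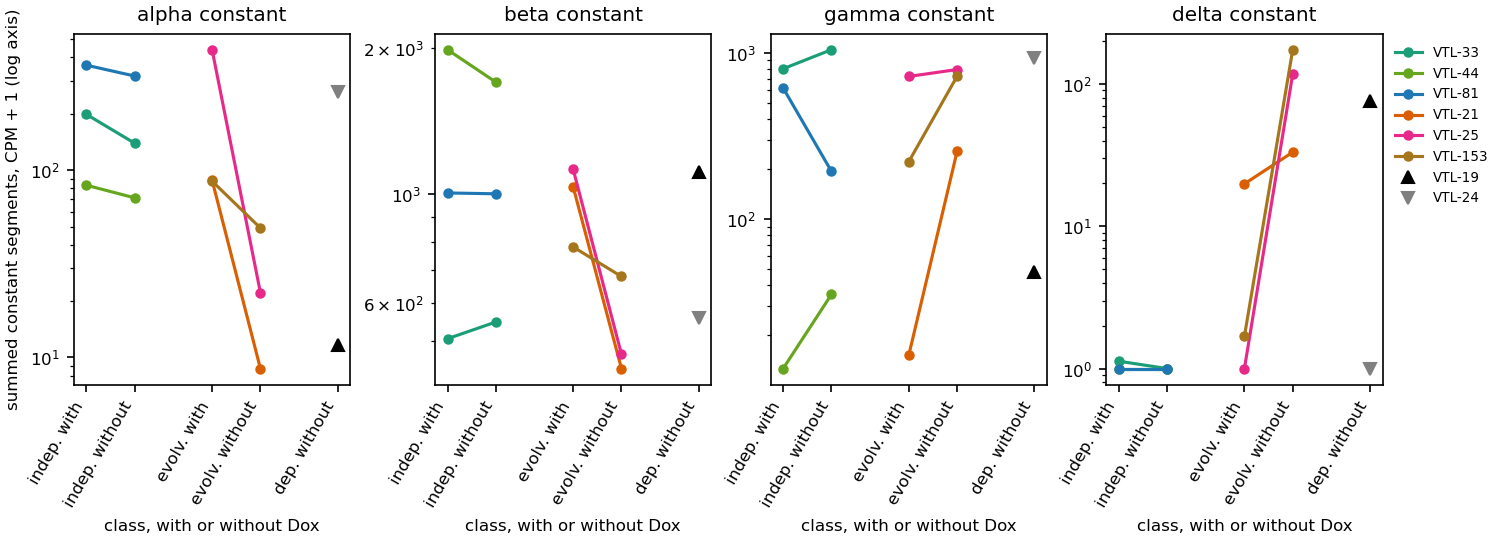
Summed constant segments of each chain in CPM + 1 on a log axis, 1 line per tumour from its library with Dox (left) to that without (right), and single points for the dependent tumours, which have no library with Dox. Alpha is higher with Dox in all 6 tumours; delta is at or near 0 in the independent tumours, whose lines overlap at the bottom, and in VTL-24.

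Of the members with at least 100 counts in either library, 16 of 17 in VTL-33, 15 of 18 in VTL-44 and 12 of 20 in VTL-81 were within 2-fold between conditions. In the evolving class these were 3 of 18 in VTL-21, 7 of 25 in VTL-25 and 11 of 17 in VTL-153. Over 8-fold apart were 8 in VTL-21, 13 in VTL-25 and 2 in VTL-153, against 1, 0 and 1 in VTL-33, VTL-44 and VTL-81. Between different tumours, VTL-21 without Dox had 10 of 18 within 2-fold of VTL-153 with Dox. The same counts over all genes were not made, and the difference between classes was not tested. At an unadjusted edgeR p under 0.05 for Dox there were 16.7% of all genes in the evolving class and 0.704% in the independent class. Immunoglobulin genes (21 listed) moved with VTL-21: they summed to 9281 CPM with Dox and 1101 CPM without, against 21.6 to 796 CPM in the other 12 libraries, and their part in the result was not tested. In the same pair erythroid markers (6 of 7 listed) summed to 174 CPM with Dox and 6.47 CPM without, and myeloid markers to 162 CPM with Dox and 16.1 CPM without. The erythroid sum was 0.0926 to 105 CPM in the other 12 libraries. The 2 listed B cell markers, Cd79b and Blnk, summed to 11.9 CPM with Dox and 16.4 CPM without in VTL-21, and to at most 28.75 CPM elsewhere.

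For Dox in the evolving tumours, edgeR's quasi-likelihood test with Benjamini-Hochberg adjustment over all genes called 0 of the 42 members tested, against 2.13% of all genes. At an unadjusted p under 0.05 there were 13 members, against 16.7% of all genes, and DESeq2 called 7 of 46, against 10.6% of all genes. Trac had a log2 change of 2.996 (SE 0.67, n = 3 tumours, higher in 3 of 3, edgeR adjusted p = 0.0808) and Trbc2 one of 0.81 (SE 0.19, higher in 3 of 3, adjusted p = 0.0857). By DESeq2 both passed (adjusted p = 4.2e-08 and 0.000626), with Trbj1-6, Trbj1-7 and Trbv13-2 also higher and Trbv13-1 and Trgj4 lower. Single pairs carried several of these: Trbj1-6 had 368 counts with Dox and 6 without under the label VTL-25 but at most 2 in the other evolving libraries, and likewise Trbj1-7 had 352 and 6. Trbv13-2 differed in VTL-21 (152 counts with Dox and 34 without), and Trbv13-1 was not lower in VTL-153 (2351 with Dox and 2023 without). Without VTL-153, edgeR called Trac (3.95, adjusted p = 0.0228), and without VTL-21 it called Trdc (−8.92, adjusted p = 0.0399). Without VTL-25 it called 0 members, and 49 genes in all against 263 with it.

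For Dox in the independent tumours edgeR called 0 of 42 members (0 at an unadjusted p under 0.05, and 0 by DESeq2), where it called 0.0% of all genes. There Trac had a log2 change of 0.34 (SE 0.57) and Trbc2 one of 0.05 (SE 0.19), both with an edgeR adjusted p of 1. For the difference of the Dox responses edgeR called 0 of 42 members, against 0.121% of all genes, with 8 at an unadjusted p under 0.05, against 9.53% of all genes. Without VTL-25 it called 0 of 43 members. DESeq2 called 1, Trac, with a difference of −2.66 (independent minus evolving, adjusted p = 0.00456), against 4.42% of all genes. The edgeR difference for Trac was also −2.66 (SE 0.87, adjusted p = 0.369).

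Between classes without Dox, edgeR called 1 of 41 members for independent against evolving tumours, where it called 0.259% of all genes. Trbv13-1 had 3, 2 and 0 counts in VTL-33, VTL-44 and VTL-81, against 882, 1488 and 2023 counts in VTL-21, the library labelled VTL-25 and VTL-153 (log2 difference −9.68, SE 0.80, edgeR adjusted p = 0.0184). It was not called without VTL-33 (adjusted p = 0.0654), VTL-25 (0.134) or VTL-153 (0.0928), and without VTL-33 the 1 member called was Trbv24. At an unadjusted p under 0.05 there were 15 members, against 16.4% of all genes, and DESeq2 called 6, against 8.69% of all genes: Trbv13-1, Trdc, Trdj2 and Trdv4 lower and Trbc1 and Trbj1-6 higher in independent tumours. Since the library labelled VTL-25 was close to VTL-153, it was not shown that these counts come from 3 separate leukaemias.

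For independent against dependent tumours edgeR called 0 of 41 members, against 0.0972% of all genes. At an unadjusted p under 0.05 there were 7, against 13.2% of all genes, and DESeq2 called 2, against 6.43%, namely Trdc (lower) and Trbv12-2 (higher). For evolving against dependent tumours edgeR called 0 of 41, against 0.0% of all genes, with 8 at an unadjusted p under 0.05, against 3.39% of all genes. It called 1 (Trbv24) without VTL-33 and 0 without VTL-25. DESeq2 called 3 there, against 0.531% of all genes: Trbv13-1 higher and Trbc1 and Trbj1-6 lower in evolving tumours. With Dox, independent against evolving tumours gave 0 of 32 members by edgeR, against 0.0% of all genes, and 0 by DESeq2, against 0.874%. At an unadjusted p under 0.05 edgeR gave 2 members, against 4.74% of all genes.

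Genes that act with the receptor were read from 3 lists, in a comparison in which edgeR called 2.13% of all genes. Of the 10 genes of the receptor complex and coreceptors, 1 rose with Dox in the evolving tumours: Cd8b1, the beta chain of the CD8 coreceptor, at 378, 134 and 338 CPM with Dox (VTL-21, VTL-25, VTL-153), against 33.7, 31.5 and 76.5 CPM without (log2 change 2.61, SE 0.41, edgeR adjusted p = 0.032). The list's median log2 change was 0.15, against −0.0025 over all genes tested. Of 12 rearrangement genes, 1 rose: Poll, the DNA polymerase lambda of end joining, at 15.65, 15.9 and 12.5 CPM with Dox, against 4.11, 2.45 and 1.41 CPM without (2.62, SE 0.32, edgeR adjusted p = 0.017). That list's median was 0.26. Neither gene passed without VTL-25 (edgeR adjusted p = 0.0958 for Cd8b1 and 0.0778 for Poll) or with no replicate block (0.151 and 0.0921), and Cd8b1 did not pass without VTL-44 (0.0728) or VTL-153 (0.0889). DESeq2 called Cd8b1 and Cd8a in the first list and Poll, Rag2 and Rag1 in the second. Of the 10 regulators of receptor loci edgeR called 0 and DESeq2 called 2, with a median of 0.16 by edgeR. In the other 6 comparisons edgeR called no member of the 3 lists.

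Rag1, a subunit of the recombinase, did not pass by edgeR, though DESeq2 called it higher with Dox in the evolving tumours. It stood at 860, 737 and 909 CPM with Dox in VTL-21, VTL-25 and VTL-153, against 187.5, 381 and 561 CPM without, and at 160, 139 and 191 CPM with Dox in VTL-33, VTL-44 and VTL-81, against 929, 524 and 164 CPM without. Ptcra, the surrogate alpha chain that pairs with beta before alpha is joined, passed by neither tool there. It stood at 217, 115 and 72.1 CPM in VTL-21, VTL-25 and VTL-153 with Dox, against 108, 160 and 330 CPM without, and at 29.2, 83.1 and 103 CPM in VTL-33, VTL-44 and VTL-81 with Dox, against 155, 217 and 123 CPM without. Both genes were named after their values were seen, as those most tied to receptor assembly.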

How the data were processed

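The submitters' processing notes name STAR 2.5.2b, featureCounts and the build mm10. The strand setting and the treatment of reads matching several segments are not given in the sources used here. Raw counts were used as the authors deposited them, without normalisation, in 1 column for each library. The 42 other columns of per-sample values were not used. Positions, exon lengths and sequences came from GENCODE M21, in which all 46 members were found under the same symbol.

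CPM used plain column totals. Shares within V or J segments were of counts per exon length. Partner overlap was tested by exact pairing permutation, and the change of summed constant segments, as log2(CPM + 1), by exact sign flips, with Benjamini-Hochberg adjustment. Segments were also tested with edgeR 4.0.16 in R 4.3.3 (TMM factors, filter at a minimum count of 10, robust quasi-likelihood fits, adjustment over all genes, threshold 0.05). Dox fits used 12 libraries with tumour as a block, and class fits used the 8 libraries without or the 6 with Dox. Alternatives included DESeq2 1.42.0. The main edgeR fits were tested on simulated counts, and the permutation functions on made-up inputs with known answers. DESeq2 and the other alternatives to the edgeR fits were not tested on simulated data. SEs are the log2 change divided by the square root of the F statistic and are inexact where a group has few counts.

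Named segments were all constant segments, the leading V and J of each chain and library, those past the threshold, and those at 5% or more in 1 library of a tumour and under 1% in its partner. From each list up to 4 genes past the threshold were named. Members, lists and tests were chosen with earlier results of these data known. The tumour number in the titles pairs the libraries. Across all genes, partners' deviations from their group means correlated at 0.694, 0.637 and 0.499 in VTL-33, VTL-44 and VTL-81, and at 0.217, 0.0367 and 0.163 in VTL-21, VTL-25 and VTL-153. There was 1 library per tumour and condition, so p-values rest on the spread between tumours.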

Additional observations from a re-analysis of the deposited data

How the results depend on the processing

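By DESeq2 the number of segments called was 7 for Dox in evolving tumours, 1 for the difference of Dox responses, 6 for independent against evolving, 2 for independent against dependent and 3 for evolving against dependent tumours without Dox, in place of edgeR's 0, 0, 1, 0 and 0. The cause was not tested. Leaving out each tumour in turn gave 0 to 1 segments for Dox in evolving tumours, 0 to 1 for independent against evolving and 0 to 1 for evolving against dependent tumours without Dox. With pairings permuted within a class, mean overlaps stayed at 78.9% (beta V), 76.9% (beta J) and 57.0% (alpha V) by construction, and fewer pairings gave an adjusted p of 0.0556. Alpha V overlap ran from 49.25% to 67.9% with each tumour left out. It was 41.3% with segments under 10 counts set to 0 (exact permutation, adjusted p = 0.0111). With no replicate block, edgeR called 0 segments for Dox in evolving tumours and the unpaired exact permutation p of the Trac change was 0.0996. The tests of the alpha, beta, gamma and delta constant sums did not pass under any alternative run. Overlap of alpha J and gamma V use was not run, as fewer than 3 such segments were listed. Junction sequences, unlisted segments and reads shared between Trbc1 and Trbc2 limit what counts per gene can tell of a clone.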
